A study of Mus musculus with 8 samples.

Results

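The core of the Hippo pathway was followed at the transcript level in lung epithelium of control mice and of mice with a conditional deletion of the pathway's upstream kinases. The set was defined by name as 10 genes, the Mst kinase genes Stk4 (Mst1) and Stk3 (Mst2), their adaptor Sav1, the kinases Lats1 and Lats2 with the adaptors Mob1a and Mob1b, the tumour suppressor Nf2, and the effectors Yap1 and Wwtr1 (Taz). Of these, 9 had a probe set of their own among the 19938 genes tested on the array, 1 probe set each, and Stk3 was not analysed here. Expression was measured on single-colour arrays in cells positive for the epithelial surface protein Epcam, which had been taken from mouse lungs at stage E18.5, shortly before birth, with magnetic beads. The 4 control arrays carry only the genotype label control, and the 4 knockout arrays come from animals with a conditional deletion of Mst1 and Mst2 by Cre recombinase expressed from ShhCre, which acts in epithelial progenitors while the lung forms. The strain, the number of animals pooled per array and whether controls carried Cre or the unrecombined conditional alleles were not stated in the labels, so the p-values measure the spread between arrays that the labels call biological replicates.

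In the canonical cascade, Mst1 and Mst2 bind Sav1 and phosphorylate Lats1, Lats2 and the Mob1 proteins. The activated Lats kinases phosphorylate Yap and Taz, which are then held in the cytoplasm or degraded, while unphosphorylated Yap and Taz enter the nucleus and act with Tead factors on DNA. Nf2, also called merlin, brings Lats kinases to the membrane. This control runs largely through phosphorylation and location of proteins, neither of which an array measures.

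Tead factors recognise the letters GGAATG, and both strands of the RefSeq promoter windows of assembly GRCm38.p6, from 250 bases before to 50 bases after each start base, were searched for them. The 9 measured genes had 12 such windows, and 5 of the 9 genes held the letters. Among all 27025 genes with windows 16.6% held them, as did 14.7% of the 32851 windows. The 5 matches are shown because Tead factors are the DNA-binding partners of Yap and Taz. Each is printed 5′ to 3′ along the gene's strand with 12 bases on either side, and the capitals mark the match or, as CATTCC, its reverse complement.
Lats2: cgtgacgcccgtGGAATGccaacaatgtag
Wwtr1: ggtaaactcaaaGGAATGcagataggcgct
Yap1: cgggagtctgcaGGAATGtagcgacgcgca
Sav1: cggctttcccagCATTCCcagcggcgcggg
Mob1a: tggccagaatagCATTCCtttaggagaaga
These stretches lie at chr14:57746102-57746131 (minus strand) for Lats2, chr3:57576029-57576058 (minus) for Wwtr1, chr9:8004720-8004749 (minus) for Yap1, chr12:69987091-69987120 (minus) for Sav1 and chr6:83325818-83325847 (plus) for Mob1a. The match began 4 bases after the start base in Lats2, and 136, 141, 106 and 209 bases before it in Wwtr1, Yap1, Sav1 and Mob1a. For Wwtr1 this is the start base of the window chr3:57575861-57576160, and its other window, chr3:57575827-57576126, holds the same match. For Lats2 it is that of chr14:57746074-57746373, and its other window, chr14:57734369-57734668, holds no match. The AP-1 letters TGAGTCA, searched in the same way, were in no window of the 9 genes and in 5.95% of all genes. A match is a description of the letters and not evidence of binding, and of the 5 genes with a match 1 passed the expression test described next.

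Among the core Hippo transcripts Lats2 rose and Stk4 fell, and the other 7 measured genes differed by 0.18 or less on the log2 scale and did not pass the test. Values are log2 expression as deposited, differences are knockout minus control with their standard error (SE) and 4 arrays per group, and a gene was called at an adjusted p under 0.05 in limma's test after Benjamini-Hochberg adjustment over all 19938 genes. The background of this comparison was wide, with 18.8% of all genes called, 8.6% higher and 10.2% lower, so that 2 of 9 called members is a share near that of the array as a whole. Control and knockout ranges were separate in 4 of the 9 members, Lats2 and Wwtr1 higher and Stk4 and Mob1b lower, where 22.1% of all genes had separate ranges. The median difference of the 9 members was 0.04, against −0.02 over all genes. Their SEs ran from 0.057 to 0.076 and the median SE of all genes was 0.075.

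**Figure D1:**
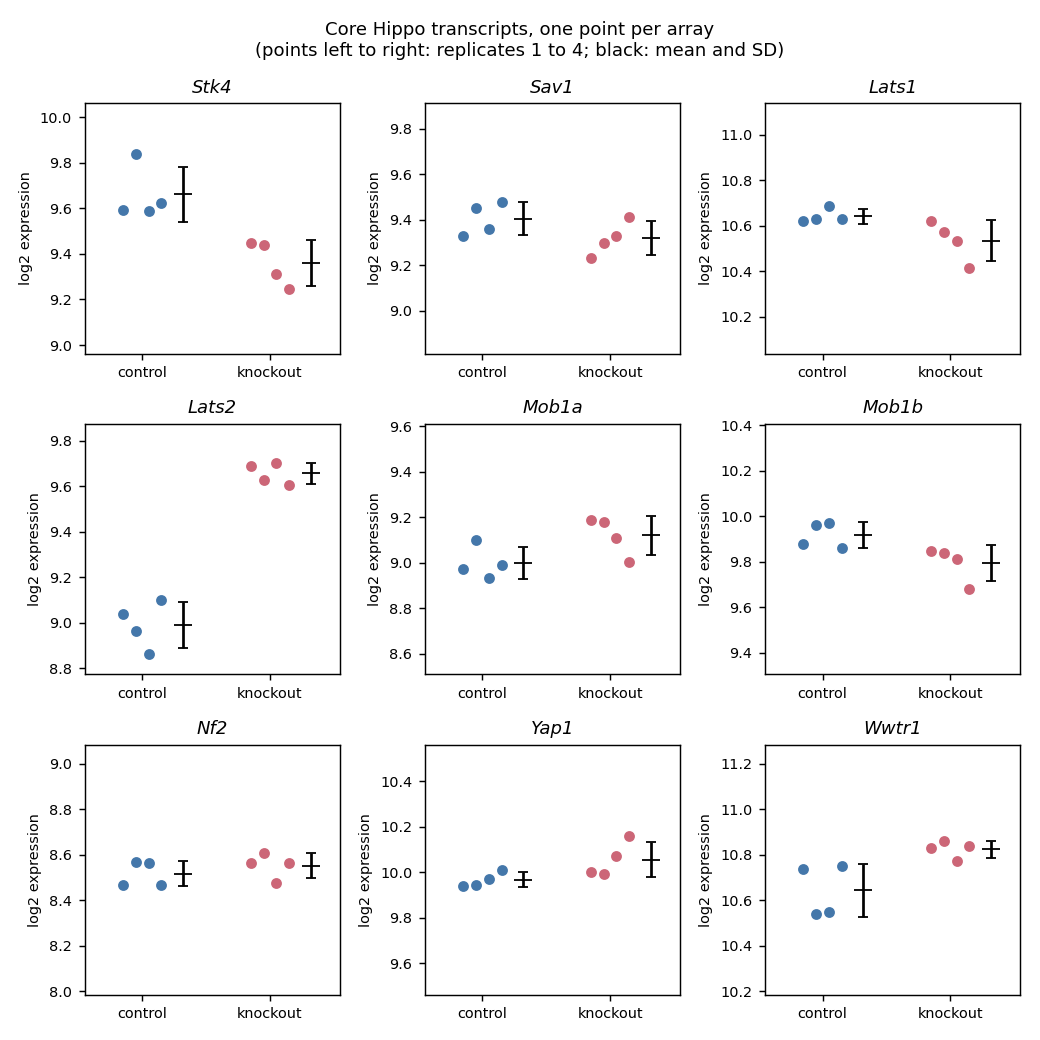
Log2 expression of the 9 measured core Hippo genes, with a point for each control (blue) and knockout (red) array, replicates 1 to 4 from left to right in each group, and the group mean with its SD in black. Every panel spans the same number of log2 units. Lats2 stands clear of its control values in all 4 knockout arrays, Stk4 lies below its own, and the remaining panels differ by 0.18 or less. Among those, all 4 knockout values lie above the control range for Wwtr1 and below it for Mob1b, by narrow gaps.

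Several epithelial and non-epithelial markers bear on how these values can be read. Epcam itself was at 10.06 in control and 10.07 in knockout arrays, and the mean of 10 lung epithelial markers ran from 11.58 to 11.71 in control and from 11.57 to 11.71 in knockout arrays. Of those 10 markers 2 were called higher, the keratins Krt19 (0.62) and Krt8 (0.27), and 1 lower, the surfactant protein gene Sftpb (−0.73). On the whole array 8.6% of genes were called higher and 10.2% lower, the background for the marker counts here and below. Markers of other cells were measured as well, none at 0 because background gives every probe set a value, the dimmest being Lum at 4.61 in both groups. In such samples fewer cells of a type cannot be told apart from less RNA per cell. The mean of 12 mesenchymal markers ran from 8.14 to 8.62 in control and from 8.44 to 9.02 in knockout arrays, with all 12 differences positive and 3 called. Endothelial markers had 3 of 8 genes called higher (37.5%) and means of 8.94 to 9.26 in control against 9.26 to 9.37 in knockout arrays. Among mesothelial markers 1 of 4 was called higher, with means of 8.81 to 9.32 and 9.14 to 9.68. The called gene was Msln, the brightest of the 4, at 11.83 in control and 12.58 in knockout arrays. Wt1, Upk3b and Lrrn4 were not called, and which cells the Msln signal came from was not tested. Of the erythroid markers 2 of 6 were measured and 0 called, with means of 7.13 to 7.35 and 7.29 to 7.64.

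Leukocyte markers varied most among the control arrays. Over replicates 1 to 4 their mean was 8.78, 9.78, 9.30 and 9.13 in control arrays, while the knockout arrays had 9.26, 9.41, 9.35 and 9.51. Of the 8 leukocyte genes 1 was called higher (12.5%, against 8.6% of all genes). The part of any of these cells in the differences below was not tested. Fits with the mesenchymal or the leukocyte mean as a covariate are given for Stk4, Lats2 and named genes that lost their call in them. They are given in part for Yap1 and Wwtr1. With the mesenchymal covariate Sav1, Lats1, Mob1a, Mob1b and Nf2 were at −0.18, −0.03, 0.20, −0.05 and 0.08. With the leukocyte covariate they were at −0.10, −0.10, 0.11, −0.13 and 0.02, and none was called in either fit. The mesenchymal mean was 8.31 in control and 8.74 in knockout arrays, so that covariate cannot be fully told apart from the knockout. With it 772 genes were called higher and 969 lower over the whole array, against 1715 and 2031 without it. Loss of a call in that fit was therefore common.

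Of the Mst kinases, which head the cascade, Stk4 could be measured. Its control arrays, replicates 1 to 4, read 9.59, 9.84, 9.59 and 9.62, and its knockout arrays 9.45, 9.44, 9.31 and 9.24. The highest knockout value was below the lowest control value, and control replicate 2 stood above the other control arrays. The fall was 1.23-fold (log2 difference −0.30, SE 0.076, limma adjusted p = 0.0188), with a 95% interval from 0.722 to 0.913 of the control level. An exact two-sided permutation test over the 70 assignments of the arrays gave p = 0.0286, the smallest that the design allows. That value follows from the separate ranges, which 22.1% of all genes had. Whether the probes fall within the deleted exons is not known, so the remaining signal does not measure how much intact transcript was left.

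Control replicate 2, where Stk4 was highest, was also the array with the highest leukocyte marker mean, 9.78. In a fit with that mean as covariate, which was chosen once the values were known, the Stk4 difference was −0.33 (limma adjusted p = 0.0145), and without control replicate 2 it was −0.24 (adjusted p = 0.0425). The call ended without knockout replicate 3 (−0.28, adjusted p = 0.0592), without knockout replicates 1 and 4 together (−0.29, adjusted p = 0.0703) and with the mesenchymal mean as covariate (−0.19, adjusted p = 0.310).

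**Figure D2:**
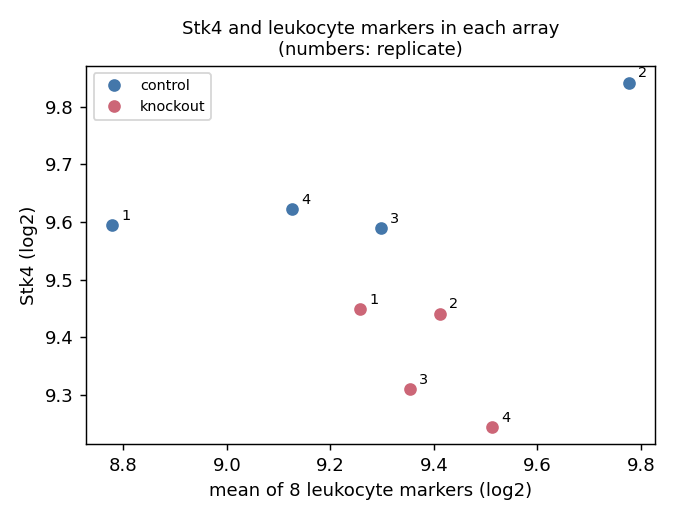
Stk4 (vertical axis, log2 expression) against the mean of 8 leukocyte markers (horizontal axis, log2 expression), with a point for each array numbered by replicate, control in blue and knockout in red. Control replicate 2 has the highest value on both axes (9.78 and 9.84), and the knockout arrays lie below the control arrays on the vertical axis between leukocyte means of 9.26 and 9.51.

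Sav1, the scaffold that joins Mst to Lats kinases, read 9.33, 9.45, 9.36 and 9.48 in control and 9.23, 9.30, 9.33 and 9.41 in knockout replicates 1 to 4. The ranges overlapped and the difference did not pass (−0.09, SE 0.062, limma adjusted p = 0.416). Its 95% interval ran from 0.856 to 1.04 of the control level. Nf2 had the smallest difference of the set (0.04, SE 0.057, adjusted p = 0.749), with 8.47, 8.57, 8.56 and 8.47 in control and 8.57, 8.61, 8.47 and 8.56 in knockout replicates. Its interval ran from 0.94 to 1.12 of the control level.

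The 2 Lats kinases, which phosphorylate Yap and Taz directly, parted from each other. Lats2 read 9.04, 8.96, 8.86 and 9.10 in control and 9.69, 9.63, 9.70 and 9.61 in knockout replicates 1 to 4, with a wide gap between the groups. It rose 1.59-fold (log2 difference 0.66, SE 0.064, limma adjusted p = 5.55e-05), with an interval from 1.44 to 1.75-fold. Leaving out any 1 array kept the difference between 0.62 and 0.70, and it was 0.64 (adjusted p = 0.00224) with the mesenchymal and 0.68 (adjusted p = 1.17e-04) with the leukocyte marker mean as a covariate. Lats2 ranked 259th of all genes by p. It is also a member of a published signature of Yap and Taz target genes, described further on.

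Lats1 read 10.62, 10.63, 10.69 and 10.63 in control and 10.62, 10.57, 10.53 and 10.41 in knockout replicates. Of the knockout arrays 3 lay below every control array and replicate 1 lay within the control range. The difference did not pass (−0.11, SE 0.060, limma adjusted p = 0.283), and its interval ran from 0.848 to 1.02 of the control level. Within each array, Lats2 minus Lats1 was −1.58, −1.66, −1.82 and −1.53 in control and −0.93, −0.95, −0.83 and −0.81 in knockout replicates 1 to 4, a value in which the offset between probe sets cancels only between groups. The changes of the paralogs differed by 0.77 (exact permutation p = 0.0286, adjusted p = 0.0429 over the 3 paralog pairs tested), higher in 4 of 4 knockout arrays than in any control array.

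The Mob1 adaptors, which bind and activate Lats kinases, had differences of opposite sign. Mob1a read 8.97, 9.10, 8.93 and 8.99 in control and 9.19, 9.18, 9.11 and 9.00 in knockout replicates, a difference of 0.12 (SE 0.064, limma adjusted p = 0.249). Mob1b read 9.88, 9.96, 9.97 and 9.86 in control and 9.85, 9.84, 9.81 and 9.68 in knockout replicates, a difference of −0.12 (SE 0.060, adjusted p = 0.206). Neither gene passed on its own, although every knockout value of Mob1b lay under its control range.

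Set against each other within an array, Mob1b minus Mob1a was 0.90, 0.86, 1.04 and 0.87 in control and 0.66, 0.66, 0.70 and 0.67 in knockout replicates. The knockout values lay close together, under the control range. The changes differed by −0.24 (exact permutation p = 0.0286, adjusted p = 0.0429 over the 3 pairs), and without any 1 array the difference of changes stayed between −0.26 and −0.20. The ratio of the paralogs was thus lower in every knockout array than in any control array, which does not tell which of them changed. How often unrelated gene pairs separate in this way was not computed, here or for the Lats pair. Of single genes 22.1% had separate ranges.

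The effectors Yap1 and Wwtr1 did not pass either. Yap1 read 9.94, 9.94, 9.97 and 10.01 in control and 9.998, 9.993, 10.07 and 10.16 in knockout replicates, of which 2 lay above every control array (difference 0.09, SE 0.058, limma adjusted p = 0.360). Its interval ran from 0.973 to 1.16 of the control level. With the mesenchymal mean as covariate the Yap1 difference was 7.43e-04 (adjusted p = 0.996).

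Wwtr1 read 10.74, 10.54, 10.55 and 10.75 in control and 10.83, 10.86, 10.77 and 10.84 in knockout replicates. The lowest knockout value was above the highest control value, and the control arrays split into replicates 1 and 4, near the knockout values, and replicates 2 and 3, lower. The difference was 0.18 (SE 0.067, limma adjusted p = 0.0931), with an interval from 1.02 to 1.25-fold. It passed in a single alternative, the fit with the leukocyte marker mean (0.21, adjusted p = 0.0488), and over all 17 alternatives its adjusted p ran from there to 0.377. The changes of Wwtr1 and Yap1 differed by 0.09 in the within-array comparison (exact permutation p = 0.257, adjusted p = 0.257 over the 3 pairs), so a different response of the effectors was not shown.

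**Figure D3:**
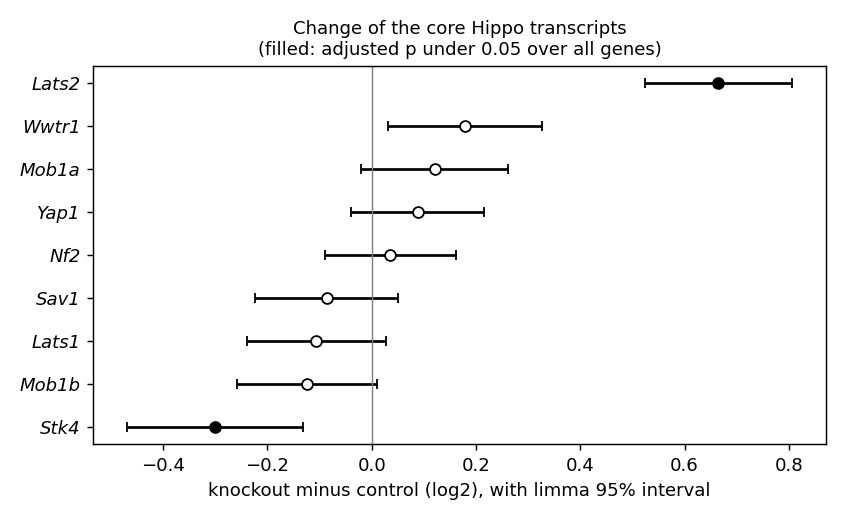
Knockout minus control on the log2 scale for the 9 measured genes with limma's 95% interval, ordered by size, with filled points for adjusted p under 0.05 over all genes. Lats2 (0.66) and Stk4 (−0.30) are filled, and of the open points only Wwtr1 has an interval that leaves out 0.

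**Figure D4:**
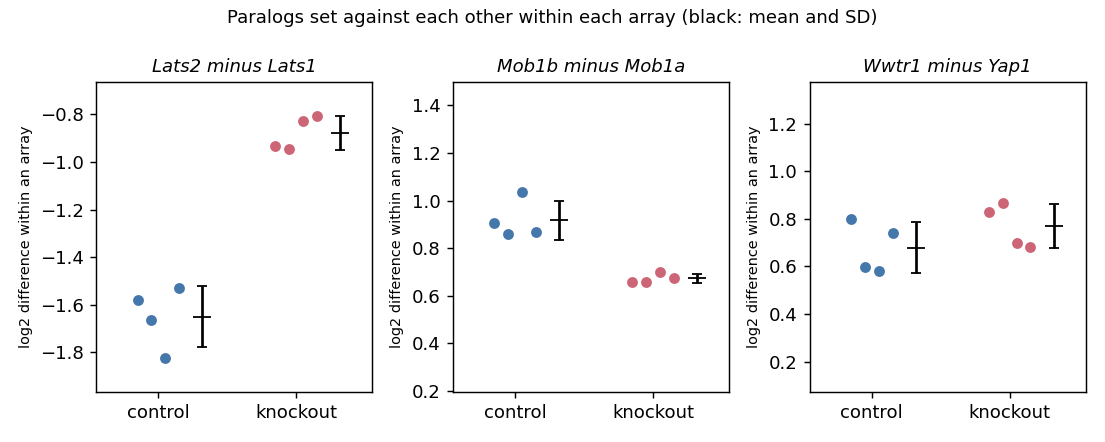
Log2 difference between the members of each paralog pair within an array, with a point per array, control in blue, knockout in red, and the group mean with its SD in black. All panels span the same number of log2 units. The groups are apart for Lats2 minus Lats1 and for Mob1b minus Mob1a and overlap for Wwtr1 minus Yap1.

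Genes with the most similar course over the 8 arrays were taken as those with the smallest root mean square difference from the member after each gene was centred on its own mean. Their likeness to the member in single arrays and in the group difference is set by that choice. For Lats2 these were Myof, a ferlin of the plasma membrane (0.033), Col4a2, a chain of basement membrane collagen (0.035), and Arhgef26 (0.047). Myof went from 10.43 ± 0.077 (SD, n = 4) to 11.10 ± 0.038, Col4a2 from 10.09 ± 0.081 to 10.75 ± 0.082 and Arhgef26 from 10.29 ± 0.11 to 10.92 ± 0.048. Lats2 itself went from 8.99 ± 0.10 to 9.66 ± 0.047.

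For Stk4 the nearest genes were Ctage5 (0.036), Dgka, a diacylglycerol kinase (0.042), and Brd7, a bromodomain protein of a chromatin remodelling complex (0.042). Each was highest in control replicate 2, as Stk4 was, at 10.28, 10.38 and 11.10, which follows from their choice by likeness to Stk4. Their differences were −0.30 (SE 0.091) for Ctage5, −0.34 (SE 0.077) for Dgka and −0.34 (SE 0.065) for Brd7, and with the mesenchymal covariate none of the 3 passed (limma adjusted p = 0.491, 0.259 and 0.0998). The call of Ctage5 also ended without any 1 of 6 arrays (all controls and knockout replicates 3 and 4).

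The other genes of the pathway were grouped by role, and 87 of them outside the core were measured, of which 29 were called higher and 6 lower. Over all genes 8.6% were called higher and 10.2% lower. The list of Mst-related kinases and Rassf scaffolds, proteins that bind Mst kinases, had 0 of 9 genes called higher and 1 lower, with a median difference of 0.04. Its share called, 11.1%, was below the 18.8% of all genes. Stk24, Stk25 and Stk26, kinases of the same wider family, differed by 0.13 (SE 0.062, limma adjusted p = 0.194), 0.01 (SE 0.058, adjusted p = 0.922) and 0.19 (SE 0.14, adjusted p = 0.445).

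The gene of this list that was called lower was Rassf6. It read 7.47, 7.59, 7.21 and 7.18 in control and 6.92, 6.70, 6.86 and 6.54 in knockout replicates (log2 difference −0.61, SE 0.11, limma adjusted p = 0.00288), and the call ended with the mesenchymal covariate (−0.43, adjusted p = 0.0831). Its mean lies below the median level of all genes, so it was not tested in the alternative limited to brighter genes. The other Rassf genes differed by −0.10 (Rassf3), −0.07 (Rassf4), 0.04 (Rassf2), 0.05 (Rassf5) and 0.07 (Rassf1), none called.

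Among kinases that can act on Lats in parallel to Mst, 8 of 10 were measured, 1 rose and 1 fell (25% called, against 18.8% of all genes). Taok3, a kinase of the TAO family, read 10.09, 10.07, 10.04 and 9.97 in control and 9.59, 9.40, 9.46 and 9.33 in knockout replicates, a fall of 1.51-fold (−0.60, SE 0.067, limma adjusted p = 1.38e-04). Its relative Taok2 rose by 0.26 (SE 0.058, adjusted p = 0.00987), which was not called with the mesenchymal covariate (adjusted p = 0.127). The list's count of rises was 2 without control replicate 4 and without knockout replicates 1 or 2. Its median difference was 0.14.

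Of 7 genes for Ndr kinases, the closest relatives of Lats, and for other Mob proteins, 0 rose and 1 fell, with a median of 0.02. The share called was 14.3%, against 18.8% of all genes. Mob3b, a Mob protein outside the Mob1 pair, read 9.73, 9.66, 9.56 and 9.60 in control and 8.88, 9.05, 8.81 and 8.53 in knockout replicates, a fall of 1.77-fold (−0.82, SE 0.10, limma adjusted p = 2.25e-04). Taok3 and Mob3b were called in all 17 alternatives. In the STRIPAK phosphatase complex, which removes activating phosphates from Mst, 11 of 12 genes were measured, 1 rose and 0 fell (median 0.08, 9.09% called against 18.8% of all genes). That gene was Strn3, a striatin (0.24, SE 0.073, adjusted p = 0.0400), and the call was lost in 12 of 17 alternatives. These were the fits without control replicates 1, 2 or 3, without knockout replicates 1, 2 or 3 or 1 and 4 together, with a replicate block (adjusted p = 0.0777), median centring (0.0754), all probe sets (0.0674), and the mesenchymal (0.270) or leukocyte (0.0551) covariate. The list's count was 2 without control replicate 4 and 3 without knockout replicate 4.

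Of 14 measured upstream and junctional regulators 9 rose and 0 fell, with a median of 0.35 (64.3% called, against 18.8% of all genes). Ajuba, a LIM protein that binds Lats, went from 8.77 ± 0.16 (SD, n = 4) to 9.96 ± 0.069, and Amot, a Yap-binding junctional protein, from 6.64 ± 0.096 to 7.38 ± 0.097 (limma adjusted p = 1.02e-05 and 5.47e-05). Amot lies below the median level of all genes and was therefore left out of the alternative limited to brighter genes. Of the 8 Tead and Vgll factors 4 rose and 1 fell (median 0.26, 62.5% called). Tead1 went from 10.72 ± 0.11 to 11.28 ± 0.054 and Tead4 from 9.44 ± 0.11 to 9.82 ± 0.060, both DNA-binding partners of Yap (adjusted p = 2.24e-04 and 0.00278). The factor that fell was Vgll4, named after its value was seen (−0.35, adjusted p = 0.0306), and its call was lost without control replicates 1 or 2, without knockout replicates 2 or 4 or 1 and 4 together, and with all probe sets (adjusted p = 0.0595). It was also lost with the mesenchymal (−0.20, adjusted p = 0.401) and the leukocyte covariate (−0.32, adjusted p = 0.0558).

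Of 11 genes that retain Yap and Taz in the cytoplasm or lead them to degradation 4 rose and 0 fell (median 0.09, 36.4% called against 18.8% of all genes). Ywhah, a phosphoprotein-binding adaptor, went from 10.82 ± 0.088 (SD, n = 4) to 11.22 ± 0.15 (0.39, SE 0.081, limma adjusted p = 0.00600) and was called in all 17 alternatives. Sfn, another adaptor of that family, also called stratifin, rose by 0.34 (SE 0.092, adjusted p = 0.0248), and lost its call without control replicates 1 or 2, without knockout replicates 2 or 3 or 1 and 4 together, and with the mesenchymal covariate (0.20, adjusted p = 0.370). Btrc and Ywhag, named after their values were seen, had adjusted p = 0.0454 and 0.0414, and lost their calls in 13 and 10 of 17 alternatives, Btrc with the mesenchymal (adjusted p = 0.365) and leukocyte (0.0629) covariates among them. The list's count was 2 without control replicates 1 or 3 or knockout replicates 1 or 2, and 1 without control replicate 2 or knockout replicate 3.

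In the signature of 22 Yap and Taz target genes, which includes Lats2, 13 rose and 2 fell, with a median of 0.40 (68.2% called, against 18.8% of all genes). Ccn2, a matricellular protein, went from 11.13 ± 0.078 (SD, n = 4) to 12.46 ± 0.14, and Myof, next to Lats2 in its course over the arrays, belongs to this list as well (limma adjusted p = 7.12e-06 and 2.83e-05). The members that fell were Gadd45a (−0.72) and Nuak2 (−0.27), named after their values were seen, and Nuak2 lost its call without control replicates 1 or 2, without knockout replicates 2 or 3 or 1 and 4 together, and with the mesenchymal covariate (−0.17, adjusted p = 0.340). With the mesenchymal covariate 8 members of the signature rose and 3 fell, and with the leukocyte covariate 4 fell. The members of the lists were chosen with earlier results of these arrays known, and no list was tested against others.

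**Figure D5:**
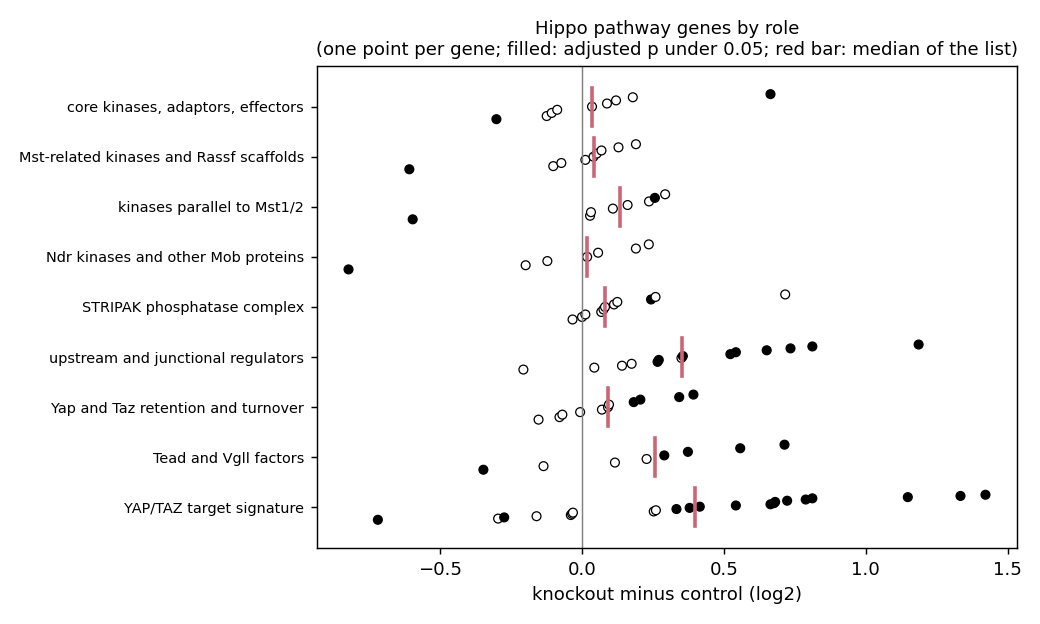
Knockout minus control on the log2 scale for the genes of the Hippo pathway, grouped by role, with a point per gene, filled for adjusted p under 0.05 over all genes, and a red bar at the median of each group. The core genes centre on 0.04, and the upstream and junctional regulators and the target signature on 0.35 and 0.40. Lats2, Amotl2 and Ptpn14 each appear in 2 groups.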

How the data were processed

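The authors deposited a table of log2 expression with 35556 probe sets and 8 arrays. That the values are log2 was read from their range. Normalization and software are not stated in the labels. Array medians ran from 7.21 to 7.30, so no further scaling was applied, and a shift shared by all genes would not be seen. Gene symbols came from GEO's platform annotation, updated by gene number to RefSeq of GRCm38.p6 (21698 of 21789 single-symbol probe sets matched, 0 symbols changed). The probe set with the highest mean stood for each of the 19938 genes, and 999 genes had more than 1.

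The fit used limma 3.58.1 (lmFit, then eBayes) under R 4.3.3, checked on simulated data, two-sided, without covariates. Paralog pairs and Stk4 were also tested with exact permutation. The planned pair of Stk4 and Stk3 was not analysed here, so the adjustment covered 3 pairs, fewer than planned. With the planned number the pairs that passed might not have done so. Group errors are standard deviations, and precision is limited by the number of arrays. The members and lists were chosen with earlier results of these data known. Named were the members, in each list the 2 called genes with the smallest adjusted p, all Mst-related kinases and Rassf scaffolds, and the 3 genes nearest to each called member. Alternatives were a replicate block, quantile normalization, median centring, a trend with robust prior, genes above the median level, all probe sets, a mesenchymal or (added later) leukocyte covariate, and leaving out arrays. The paralog pairs were run in 12 of the 17, with no marker covariate among them.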

Additional observations from a re-analysis of the deposited data

Results flagged for a closer look

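In 82 groups of 4 arrays (members, named genes and marker means, control and knockout separately) 7 had an array far from the other 3, where chance gives about 1 in 20. Stk4 read 9.84 in control replicate 2 against 9.59 to 9.62 in the other control arrays. Lats1 read 10.69 in control replicate 3 against 10.62 to 10.63. In the same control replicate 3, Stk26 read 7.71 against 8.05 to 8.08. Rassf1 read 8.40 in control replicate 4 against 8.23 to 8.24, and Rassf3 read 9.42 in control replicate 2 against 9.09 to 9.13. Among knockout arrays, Rassf2 read 10.19 in replicate 2 against 10.12 and Ajuba 9.86 in replicate 3 against 9.98 to 10.01. The causes were not tested.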

How the results depend on the processing

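The signs of all 9 members were kept in 17 alternatives, with no reversal, and Lats2 was called in each. With the mesenchymal covariate 772 genes were called higher and 969 lower, 17 other pathway genes were higher, 0 core members were lower, and Stk4 was at −0.19. With the leukocyte covariate 2 core members were called higher. Without knockout replicates 1 and 4 together 0 core members were lower, Stk4 was at −0.29, and the pair differences were 0.76 (Lats2 and Lats1) and −0.24 (Mob1b and Mob1a), where 4 against 2 arrays cannot pass (exact permutation p of at least 0.0667). Leaving out 1 array gave Stk4 from −0.33 to −0.24 and 0 to 1 core members called lower, 0 without knockout replicate 3, 0.71 to 0.81 for Lats2 and Lats1, and 22 to 32 other pathway genes higher and 4 to 7 lower. Same-numbered control and knockout arrays shared little of their deviation from the group means (correlations of 0.06, 0.10, −0.08 and 0.04). These correlations cannot show whether such arrays shared a litter or were processed together. With a replicate block the pair differences were again 0.77 and −0.24, with adjusted p = 0.188 by exact permutation within pairs, whose smallest unadjusted p is 0.125, while 36 other pathway genes were called, 32 of them among the 35 of the unblocked fit, and Stk4 and Lats2 stayed called. Other-probe-set alternatives could not be run because each member has 1 probe set. Small counts in single lists moved too. The parallel kinases called higher were 3 with quantile normalization, with the block and among brighter genes, and 0 with the mesenchymal covariate. The STRIPAK genes called higher were 0 with median centring, all probe sets and the mesenchymal covariate, 2 with quantile normalization and the leukocyte covariate, and 3 among brighter genes. The retention and turnover genes called higher were 2 with median centring, with all probe sets, with the block and with the mesenchymal covariate. In lists with a count of 0, 1 upstream and junctional regulator was called lower without control replicate 4, and 1 gene each of the Mst-related and the Ndr and Mob lists was called higher without knockout replicate 4. The cause was not tested for any of these. Dim probe sets have no detection call in the deposited values, so differences of low genes may be understated.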
